A study of Mus musculus with 83 samples.

Results

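The miR-15/16 family was followed through small RNA libraries of mouse embryonic stem cells (ESCs) that lost the maintenance DNA methyltransferase Dnmt1, of AGO2 immunoprecipitates from these cells, and of primordial germ cells (PGCs). The members were taken by name from the known make-up of the family: the hairpin genes Mir15a, Mir16-1, Mir15b, Mir16-2, Mir195, Mir497, Mir322 and Mir503, 8 of 32101 features and of 1577 miRNA features in the deposited table. No measured value entered the rule, but earlier results of these data were known when it was set. MicroRNAs of this family share a seed, the short stretch at the 5′ end that pairs with target messages. They are known for restraining the cell cycle through cyclins and cyclin-dependent kinases, and Mir15a and Mir16-1 are known as tumour suppressors of B cells. A hairpin is processed by DROSHA and DICER, and 1 arm is loaded into an ARGONAUTE protein such as AGO2, which carries it to its targets.

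The ESCs were Dnmt1 loxP/loxP cells in serum with LIF, with or without feeder cells. For the Dnmt1 KO, Cre recombinase was induced with tamoxifen. The titles do not say whether control cells received tamoxifen. If they did not, tamoxifen, Cre and loss of Dnmt1 cannot be told apart. The sample tags give E14 as the background strain, and the study's methods describe the line as C57BL/6. Total small RNA was sequenced from control and Dnmt1 KO cells on days 1, 3, 6, 9, 11 and 25, with 3 libraries in each of the 12 groups, 36 in all. AGO2 immunoprecipitates comprised 4 control and 4 Dnmt1 KO libraries. Their titles give no day, and the study's account of the experiment places them at day 9. PGCs, sorted for the Oct4-GFP transgene from C57BL/6J embryos, gave 1 library each for females and males at E13.5 and E14.5 of embryonic development. A further 30 time course and 3 PGC libraries bear the suffix R1, and 1 control and 1 Dnmt1 KO library are titled none, which the labels do not explain. A single ESC line is described, and no sample label ties a replicate to a separate clone. Genotype tags contradict the titles of the AGO2 libraries, of those titled none and of R1 libraries up to day 9, and ESC is the cell type tag even of PGCs. Groups were therefore taken from the titles.

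The 8 hairpins form 4 pairs of close neighbours in the mouse genome (build NCBIM37). Mir16-1 (chr14:62250717-62250809, minus strand) and Mir15a (chr14:62250864-62250947, minus strand), listed in the table under clone names and identified here by both of their mature arms, lie 54 bases apart within the Dleu2 gene. Mir15b (chr3:68813678-68813775) and Mir16-2 (chr3:68813824-68813918), both on the plus strand and 48 bases apart, lie within Smc4, which encodes a condensin subunit. Mir497 (chr11:70048219-70048302) and Mir195 (chr11:70048544-70048637), on the plus strand, are separated by 241 bases and overlap no other feature of the table. Mir503 (chrX:50407161-50407231) and Mir322 (chrX:50407432-50407526), on the minus strand of the X chromosome, are separated by 200 bases.

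The mature 5′ arms are shown because they define the family, with the seed (bases 2 to 8) in capitals, as given by RefSeq (annotation of GRCm38.p6), in which 8 of 8 hairpins were matched.
miR-15a-5p: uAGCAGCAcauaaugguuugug
miR-16-5p: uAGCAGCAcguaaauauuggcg
miR-15b-5p: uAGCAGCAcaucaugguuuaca
miR-195a-5p: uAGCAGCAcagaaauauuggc
miR-497a-5p: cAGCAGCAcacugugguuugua
miR-322-5p: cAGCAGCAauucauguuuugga
miR-503-5p: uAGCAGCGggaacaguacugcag
Among 1674 distinct mature mouse sequences, 10 hold the seed AGCAGCA (0.597%), and the seed AGCAGCG of miR-503-5p is held by that sequence alone. Mir16-1 and Mir16-2 yield the same 5′ arm, identical at 22 of 22 bases, so a read of miR-16-5p cannot be assigned to either hairpin from its sequence. By contrast, their 3′ arms, shown because only these tell both copies apart, differ.
miR-16-1-3p: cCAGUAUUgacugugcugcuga
miR-16-2-3p: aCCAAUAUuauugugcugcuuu
How the authors placed reads with several matches is not given in the sources used here, and a value of Mir16-1 or Mir16-2 is uncertain for that reason. miR-16-5p and miR-195a-5p are identical at 19 of the 21 bases compared, and miR-15a-5p and miR-15b-5p at 18 of 22.

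Depth, taken from reads recovered from the deposited values, was 521066 to 6239009 reads in the time course (median 3002488), with all day 25 libraries at the low end (521066 to 815523). AGO2 libraries held 1152390 to 11520131 reads in Dnmt1 KO and 11497720 to 25423014 in control cells, and the PGC libraries 1734576 to 3435993. The R1 libraries of the time course had 30.8 to 41.2% of the depth of their namesakes, and in 30 of 30 cases their deviations from the group mean were most like those of the library of the same number, so they were not counted as further replicates. The Dnmt1 feature, small RNA fragments that do not measure the deletion, had a median of 45.8 RPM among control libraries and 44.1 RPM among those of the Dnmt1 KO. Summed ESC markers (12 miRNAs of the mir-290 and mir-302 clusters) had group medians of 111794 to 204668 RPM in the time course, and feeder or mesenchyme markers group means of 1369 to 25189 RPM.

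Levels are given as RPM, the reads of 20 to 24 bases on a hairpin scaled to the total that the authors used, which compares libraries. They are given as RPKM, which also divides by hairpin length, where genes are compared with each other. In control ESCs on day 1 the family summed to 1768 ± 84.4 RPM (SD, n = 3). By RPKM the order of the levels was led by Mir15b (5676 ± 365 RPKM) and Mir16-1 (4951 ± 828 RPKM), whose libraries overlapped. Mir497 (2334 ± 419 RPKM) and Mir15a (2300 ± 92.0 RPKM), which also overlapped each other, came next, followed by Mir195 (1865 ± 112 RPKM) and Mir322 (1632 ± 122 RPKM). Mir16-2 (285 ± 39.3 RPKM) and Mir503 (68.7 ± 23.1 RPKM) were the lowest. Over the 12 groups, Mir16-2 was always seventh and Mir503 eighth, Mir15b held ranks 1 to 2, Mir16-1 ranks 1 to 3, Mir15a ranks 2 to 4, Mir497 ranks 3 to 5 and Mir195 ranks 5 to 6. Mir322 moved over the widest span, ranks 3 to 6. Reads of Dleu2 and Smc4 gave no separate measure of the host genes, since 98.9 to 100% and 96.0 to 98.8% of them were the reads of the hairpins inside.

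**Figure D1:**
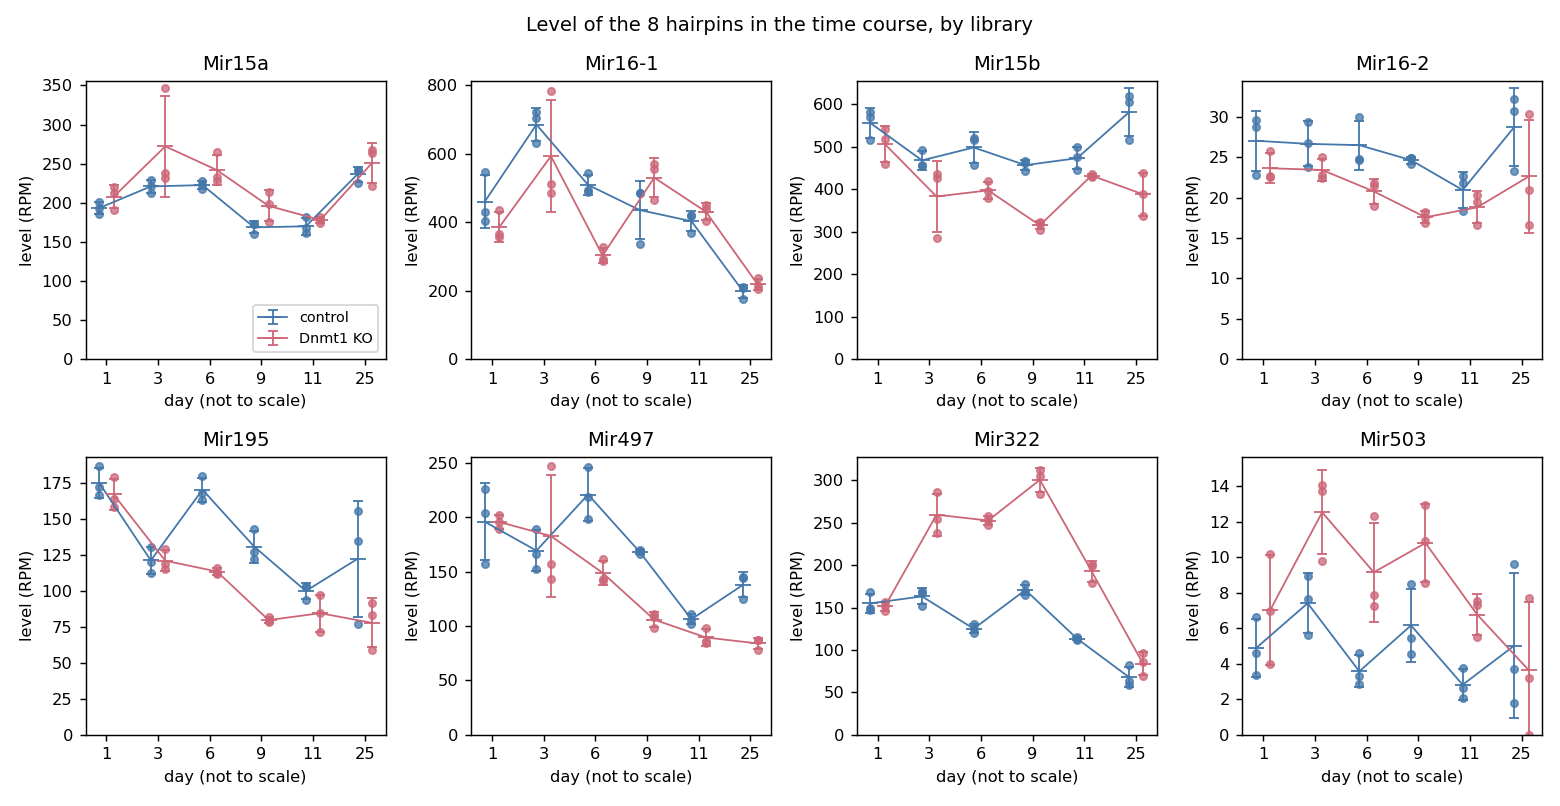
Level of each of the 8 hairpins (RPM, linear axis from 0) by day (categories, not to scale) in control and Dnmt1 KO ESCs. Points are libraries, dashes group means and bars SD (n = 3). Mir322 libraries of the Dnmt1 KO lie above all control libraries of the same day on days 3, 6, 9 and 11, between 179 and 312 RPM against 112 to 177 RPM.

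Between Dnmt1 KO and control cells, Mir322 was the family member with the most persistent difference, higher in Dnmt1 KO cells from day 3 to day 11. In control cells its level was 150, 168 and 147 RPM on day 1, 152, 167 and 170 RPM on day 3, 130, 120 and 125 RPM on day 6, 177, 165 and 170 RPM on day 9, 112, 115 and 113 RPM on day 11, and 59.2, 63.3 and 82.2 RPM on day 25. In Dnmt1 KO cells it was 146, 152 and 156 RPM on day 1, 286, 254 and 238 RPM on day 3, 253, 258 and 247 RPM on day 6, 312, 284 and 305 RPM on day 9, 179, 199 and 201 RPM on day 11, and 69.1, 96.1 and 85.3 RPM on day 25. The genotypes overlapped on days 1 and 25, and on the 4 days between them each Dnmt1 KO library was above each control library. Differences between genotypes were tested with limma on log2(RPM + 1) after TMM scaling, with Benjamini-Hochberg adjustment over all 2582 features tested, and an adjusted p under 0.05 counted as a call.

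The log2 difference of Mir322 (Dnmt1 KO minus control, SE 0.12 on each day) was -0.12 for day 1 (adjusted p = 0.742). It reached 0.68, 0.90, 0.93 and 0.84 for days 3, 6, 9 and 11, with adjusted p = 0.000122, 7.61e-08, 3.92e-08 and 4.03e-07. The value of day 9 is a 1.90-fold higher level. Averaged over the 6 days, the difference was 0.61 ± 0.05 (SE, adjusted p = 9.33e-14). It grew by 0.96 ± 0.17 (SE) from day 1 to day 11 on the log2 scale (adjusted p = 3.36e-05). Mir322 was the 1 member of 8 called for such a change, where 9.02% of all features and 30.9% of miRNA features were called. On day 25 the difference was 0.40 (adjusted p = 0.00713), a call that was lost when that day was fitted alone (adjusted p = 0.177) and when control replicate 1 or 2 or Dnmt1 KO replicate 2 or 3 of that day was left out (log2 difference 0.23 to 0.31).

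Markers of feeder cells moved with the genotype on the same days. The 6 features of the feeder or mesenchyme list (Mir143, Mir145, Mir199a-1, Mir199a-2, Mir214 and Mir10b) summed to 11779 to 11995 RPM in control and 17566 to 20007 RPM in Dnmt1 KO libraries on day 3, 6898 to 8196 and 12485 to 13876 RPM on day 6, and 12490 to 16816 and 23474 to 26198 RPM on day 9. On day 11 the sums were 11616 to 12349 RPM in control and 13675 to 16171 RPM in Dnmt1 KO libraries, and on day 25 they were 1307 to 1456 and 1346 to 1433 RPM. Mir199a-1 was at 0 throughout. Of the 5 members of the list that were tested, none was called on day 1, 4 rose on each of days 3, 6 and 9 (Mir143 by 0.67, 0.73 and 0.95 on the log2 scale), and 2 rose on day 11. On day 25, 3 were higher and 2 lower. Mir142, a miRNA of blood cells and the 1 tested member of a list of 4 blood markers, rose by 0.51, 1.44 and 1.63 on days 6, 9 and 11 on the log2 scale and fell by 0.42 on day 25. The part of these markers in the difference of Mir322 was not tested. In bulk libraries a change in the number of cells of a type and a change in RNA per cell cannot be told apart.

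Mir503, the neighbour of Mir322 with its own seed, was measured with 0 to 80 reads per library. It passed the filter of 10 RPM in 3 libraries only through Dnmt1 KO libraries, where it was high (control libraries reached 9.60 RPM), so its call supports no difference. Its level in control libraries was 4.58, 3.3 and 2.83 RPM on day 6 and 3.77, 2.62 and 2.06 RPM on day 11, against 12.3, 7.27 and 7.84 RPM and 7.55, 5.48 and 7.28 RPM in Dnmt1 KO libraries. The genotypes did not overlap on days 3, 6, 9 and 11. Log2 differences were 0.71, 1.05, 0.85 and 1.11 on these days (SE 0.45 each) and none passed the threshold (adjusted p = 0.452, 0.0902, 0.216 and 0.155). The mean over the 6 days did, at 0.58 ± 0.19 (SE, adjusted p = 0.0156), though not with a pseudocount of 0.1 RPM (0.53, adjusted p = 0.26) or among miRNA features alone (0.43, adjusted p = 0.055).

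**Figure D2:**
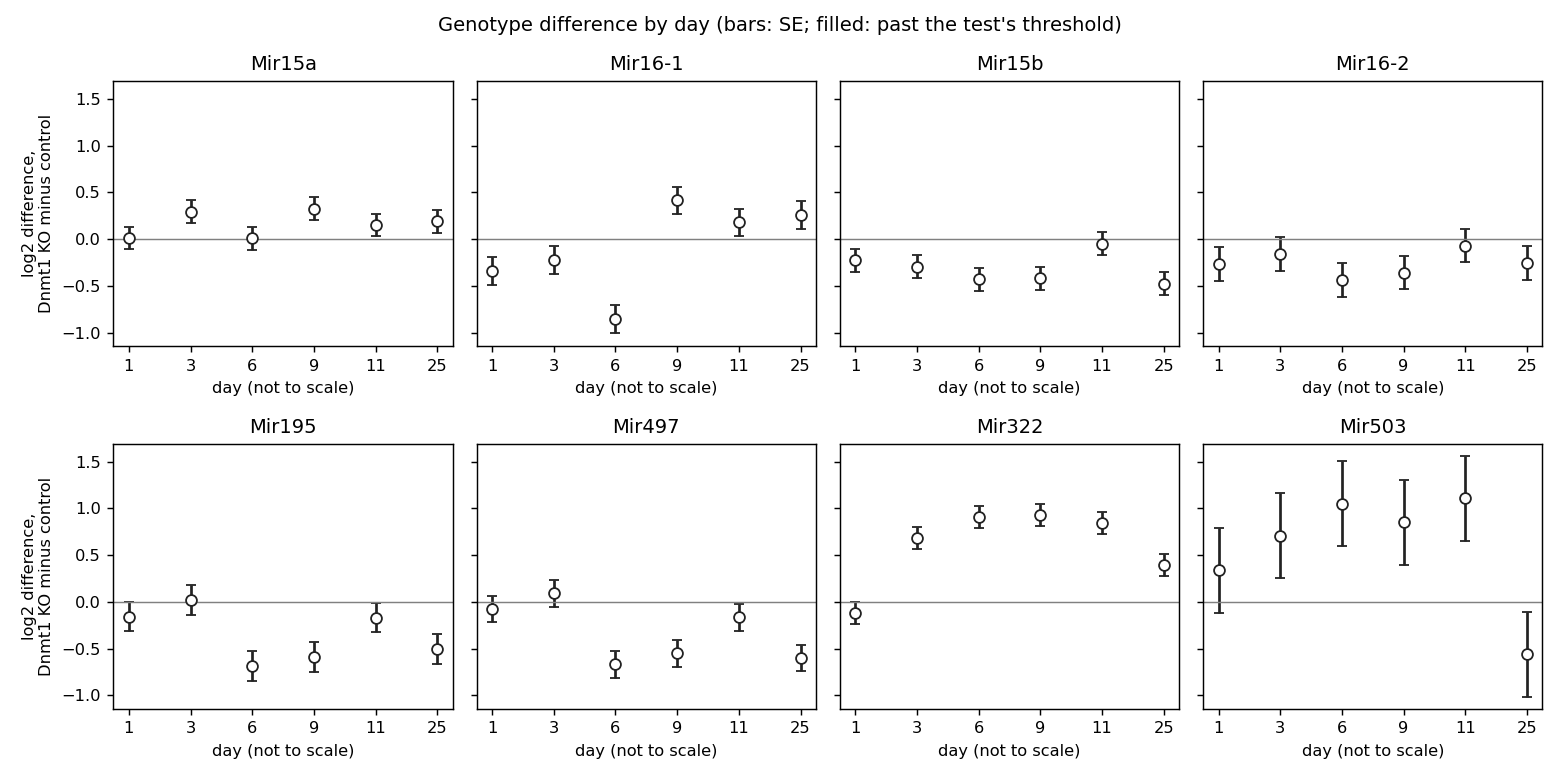
Log2 difference between Dnmt1 KO and control cells (y axis, points with SE bars) by day (categories, not to scale) for each hairpin, n = 3 libraries per genotype and day. All points are drawn open whatever their test result, so calls at adjusted p under 0.05 are given in the text only. Mir322 lies above 0 on days 3 to 25. Mir15b, Mir195 and Mir497 lie below 0 on days 6, 9 and 25, when they were called lower.

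The chromosome 11 pair and Mir15b were lower in Dnmt1 KO cells on days 6, 9 and 25. Mir195 had 180, 163 and 168 RPM in control and 116, 112 and 113 RPM in Dnmt1 KO libraries on day 6, and 122, 143 and 127 RPM against 81.9, 78.3 and 79.2 RPM on day 9. Mir497 had 218, 198 and 246 RPM against 162, 144 and 142 RPM on day 6, and 166, 169 and 170 RPM against 97.9, 109 and 111 RPM on day 9. Mir15b had 517, 522 and 457 RPM against 395, 378 and 419 RPM on day 6, and 443, 463 and 466 RPM against 322, 319 and 304 RPM on day 9. In all 3 hairpins each Dnmt1 KO library of these days lay below each control library.

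On the log2 scale Mir195 fell by 0.69 and then, at the later of both days, by 0.59 (SE 0.16, adjusted p = 0.00103 and 0.00573). Mir497 fell by 0.67 and by 0.55 (SE 0.14, adjusted p = 0.000459 and 0.00447), and Mir15b fell by 0.43 and by 0.42 (SE 0.12, adjusted p = 0.00675 and 0.0107). Over the mean of 6 days the log2 differences were -0.35 for Mir195, -0.33 for Mir497 and -0.31 for Mir15b, with adjusted p = 4.1e-05, 2.21e-05 and 2.02e-06. The call of Mir15b was lost on day 6 without Dnmt1 KO replicate 2 (adjusted p = 0.0632) and on day 9 without control replicate 2 (adjusted p = 0.0514), and that of Mir195 on day 9 without the same control library (adjusted p = 0.0567). On day 11 none of these 3 hairpins (Mir195, Mir497 and Mir15b) was called, with log2 differences of -0.17, -0.17 and -0.05. That depended on the processing: in a limma fit of miRNA features alone all 3 were called lower on day 11. The log2 differences there were -0.48, -0.48 and -0.36 (adjusted p = 0.0142, 0.00384 and 0.0121).

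On day 25, Mir15b had 620, 606 and 516 RPM in control and 389, 438 and 337 RPM in Dnmt1 KO libraries, and Mir497 had 145, 144 and 125 RPM against 86.8, 78.1 and 87.2 RPM. Neither pair of ranges overlapped. Mir195 had 134, 155 and 77.3 RPM in control and 91.6, 83.2 and 58.7 RPM in Dnmt1 KO libraries, which overlapped. The log2 differences were -0.47 for Mir15b (adjusted p = 0.00188), -0.60 for Mir497 (adjusted p = 0.000992) and -0.50 for Mir195 (adjusted p = 0.0117). Day 25 libraries were the shallowest, and on simulated data the fit shared by all days called too many unchanged features on that day. With day 25 fitted alone, Mir15b (adjusted p = 0.0326) and Mir497 (adjusted p = 0.0157) were still called, and Mir195 (adjusted p = 0.237) was not.

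Mir16-1 was lower in Dnmt1 KO cells on day 6, while a higher level on day 9 depended on the processing. On day 6 its level was 496, 544 and 488 RPM in control and 294, 288 and 327 RPM in Dnmt1 KO libraries, with no overlap, and it fell by 0.85 (SE 0.15, adjusted p = 2.18e-05) on the log2 scale. On day 9 the levels were 485, 337 and 485 RPM against 465, 556 and 571 RPM, which overlapped, and the log2 difference was 0.41 (adjusted p = 0.0462). This last call was lost with library totals (0.30, adjusted p = 0.152), median-ratio factors (0.37, adjusted p = 0.0737) and the miRNA total (0.26, adjusted p = 0.199), and among miRNA features alone (0.19, adjusted p = 0.23), with a pseudocount of 0.1 RPM (adjusted p = 0.0614), with at least 1 read in 3 libraries (adjusted p = 0.594) and in the R1 libraries (adjusted p = 0.321). It was also lost without control replicate 2 (0.26, adjusted p = 0.318), Dnmt1 KO replicate 2 (0.32, adjusted p = 0.229) or Dnmt1 KO replicate 3 (0.28, adjusted p = 0.318), and with the reads of both miR-16 hairpins summed (0.38, adjusted p = 0.0612). With the copies summed, the fall on day 6 was 0.83 (log2 difference -0.83, adjusted p = 1.91e-05).

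Mir16-2, measured at 16.6 to 32.3 RPM in the time course, was lower over the mean of 6 days (log2 difference -0.26 ± 0.07, SE, adjusted p = 0.00635) and was called on no single day. The largest of its daily differences was -0.44 on day 6 (adjusted p = 0.0729), where control libraries had 24.7, 24.8 and 30.0 RPM and Dnmt1 KO libraries 18.998, 21.5 and 21.8 RPM. Mir15a was higher over the mean of 6 days (0.16 ± 0.05, SE, adjusted p = 0.00981), a call lost without any of 8 single libraries (among them Dnmt1 KO day 3 replicate 1, log2 difference 0.096, adjusted p = 0.0922) and among miRNA features alone (-0.0068). That Dnmt1 KO library of day 3 stood apart from its replicates in several hairpins, with 346 RPM of Mir15a against 238 and 232 RPM, 782 RPM of Mir16-1 against 511 and 486 RPM, and 286 RPM of Mir15b against 427 and 436 RPM.

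The genotype comparison called 0 of 8 members for day 1 (3.80% of all features), 1 for day 3 (6.24%), 5 for day 6 (23.0%), 5 for day 9 (18.4%), 1 for day 11 (8.64%) and 4 for day 25 (35.0%). Averaged over the 6 days it called 7 of 8 (26.7% of all features), 3 higher and 4 lower. One of the 3 higher members was Mir503, whose place among the tested features came from its Dnmt1 KO level, and without it 6 members were called, 2 of them higher. On day 1, 1 member (Mir16-1) had an unadjusted p under the threshold in limma, and with voom weights 0 were called. MicroRNA features (291 tested) were called more often than features as a whole. Their shares were 4.81, 27.5, 57.0, 54.6, 35.7 and 69.8% from day 1 to day 25, and 71.5% for the mean. The median log2 difference over the 8 members was -0.14, 0.06, -0.43, -0.01, 0.05 and -0.36 from day 1 to day 25, beside 0.02, -0.02, 0.14, 0.09, -0.05 and -0.00 for all features and -0.05, 0.24, 0.11, 0.32, 0.24 and -0.20 for miRNA features.

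Other miRNAs located near Mir322 on the X chromosome changed in different directions. Of 5 neighbours in the table, within 6176 bases of Mir322, Mir450-1 and Mir450-2 were at or below 3.40 RPM and 3 were tested. Mir351, 901 bases away, was higher in Dnmt1 KO cells by 0.55, 0.82, 0.70 and 0.45 on days 3, 6, 9 and 11 on the log2 scale (adjusted p = 0.00175, 4.22e-07, 8.63e-06 and 0.00618). Mir450b, the farthest, was lower on days 6, 9 and 25, with log2 differences of -0.89, -0.63 and -0.75 at adjusted p = 6.66e-05, 0.00455 and 0.000422, and Mir542 fell by 0.47 on day 6 and by 0.74 on day 25 (adjusted p = 0.0417 and 0.000769). let-7 and miR-34, other miRNAs known for restraining the cell cycle, had 8 tested members, of which 4 rose on day 3, 5 on day 6, 7 on day 9 and 2 on day 11. On day 25, 1 was higher and 3 were lower, and over the mean of days 7 of 8 rose, among them Mir34c (0.40, adjusted p = 6.82e-11) and Mirlet7f-2 (0.38, adjusted p = 0.000307). Of 12 ESC markers, 1 was higher, 6 were lower and 5 were not called over the mean.

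In control cells alone, 4 of 8 members were lower on day 25 than on day 1, and none was higher. That share is near the 50.9% of all features called, and 68.7% of miRNA features were called. Mir322 fell from 150, 168 and 147 RPM to 59.2, 63.3 and 82.2 RPM and Mir16-1 from 403, 430 and 548 RPM to 208, 175 and 211 RPM, both without overlap. The log2 differences were -1.32 ± 0.12 (SE, adjusted p = 1.81e-12) and -1.34 ± 0.15 (SE, adjusted p = 5.45e-10). Mir195 fell by 0.71 (adjusted p = 0.000254) and Mir497 by 0.62 (adjusted p = 0.000355) on the log2 scale, but neither was called among miRNA features alone (-0.31 and -0.23, adjusted p = 0.0952 and 0.146), whose median in the comparison was -0.57. Mir15b (-0.07) and Mir15a (0.16) were not called. All 5 tested feeder markers were lower on day 25, with a median log2 difference of -3.48, and 6 of 8 let-7 and miR-34 features were lower (median -2.17). How far this touches the 4 members was not tested.

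In AGO2 immunoprecipitates, Mir322 showed the widest difference between genotypes among the 7 members tested. Its level was 268, 298, 86.7 and 86.5 RPM in control and 1093, 998, 1473 and 1534 RPM in Dnmt1 KO libraries. Each Dnmt1 KO library was above each control library, and among controls replicates 3 and 4 were below replicates 1 and 2. The log2 difference was 2.73 ± 0.42 (SE, adjusted p = 0.000765, limma within the 8 AGO2 libraries and 456 features), a 6.66-fold higher level. By RPKM, Mir322 was the first of the family in AGO2 libraries of the Dnmt1 KO (13416 ± 2827 RPKM, SD, n = 4), without overlap with Mir15b in the next place (5497 ± 1469 RPKM). In AGO2 libraries of control cells, Mir15b was first (7063 ± 488 RPKM) and Mir322 (1946 ± 1202 RPKM) held rank 4, overlapping Mir497 and Mir195 on either side. Whether the difference of Mir322 is larger in AGO2 than in total RNA was not tested.

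Mir503 was below the filter of 10 RPM in 3 libraries and was not tested, with 1.42, 1.48, 0.631 and 0.275 RPM in control and 9.55, 10.3, 10.1 and 6.86 RPM in Dnmt1 KO libraries (7 to 31 and 11 to 79 reads), ranges that did not overlap. Mir497 fell from 217, 211, 166 and 199 RPM to 112, 127, 123 and 164 RPM, and Mir195 from 185, 201, 171 and 168 RPM to 153, 127, 146 and 121 RPM. Both pairs of ranges were apart, and the log2 differences were -0.85 ± 0.19 (SE, adjusted p = 0.00831) and -0.66 ± 0.17 (SE, adjusted p = 0.0154). Mir15b had 660, 752, 708 and 648 RPM in control and 477, 391, 729 and 558 RPM in Dnmt1 KO libraries, which overlapped, with a log2 difference of -0.65 ± 0.22 (SE, adjusted p = 0.0457). That call was lost without any 1 of 6 of the 8 libraries, namely each of the 4 control libraries and Dnmt1 KO replicates 1 and 2 (adjusted p = 0.0797 to 0.126), and with at least 1 read in 3 libraries or at least 10 reads in every library (adjusted p = 0.0628 and 0.063). Mir16-1, at 18.003, 16.1, 15.6 and 19.6 RPM against 32.1, 52.1, 23.4 and 28.2 RPM, did not overlap either, but its difference of 0.63 was not called (adjusted p = 0.0897). Mir15a (0.16) and Mir16-2 (0.07) were not called.

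In all, 4 of the 7 members tested were called in AGO2 libraries, 1 higher and 3 lower, beside 36.4% of all features and 44.7% of miRNA features. Replicate numbers paired these libraries, and in limma with a replicate block the same 4 members were called. Their adjusted p was then 0.00301 for Mir322, 0.0170 for Mir497, 0.0277 for Mir195 and 0.0322 for Mir15b. With library totals and with the miRNA total, which raised the median of all features from 0.10 to 0.34 and 0.35, the calls of Mir15b (-0.40 and -0.38, adjusted p = 0.189 and 0.203) and Mir195 (-0.41 and -0.39, adjusted p = 0.109 and 0.118) were lost and Mir16-1 was called higher (0.88 and 0.89, adjusted p = 0.0313 and 0.0288). Mir322 stayed higher and Mir497 lower under both. Of all features called, 113 of 166 were higher as fitted, 137 of 158 with library totals and 140 of 159 by the miRNA total. The series' design text counts 2 biological replicates for some samples, so that 4 libraries may be 2 cultures. With replicates 1 and 2 averaged and 3 and 4 averaged, no member was called and the adjusted p of Mir322 was 0.0511, the lowest of the 4 members called above. Without control replicate 3, 2 members were called. The Dnmt1 KO libraries were shallower than the controls, and markers of blood and feeder cells differed as well. Mir142 was higher by 1.41 (adjusted p = 0.000961) and Mir143, the 1 feeder marker called of 3 tested, by 1.13 (adjusted p = 0.000254) on the log2 scale, with summed feeder markers at 4507 to 4949 RPM against 1589 to 3555 RPM in control. Their part in the result was not tested. Mir351 was 1.34 higher (adjusted p = 0.0339) and Mir450b 0.79 lower (log2 difference -0.79, adjusted p = 0.0192), and 0 of 7 let-7 and miR-34 features were called.

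**Figure D3:**
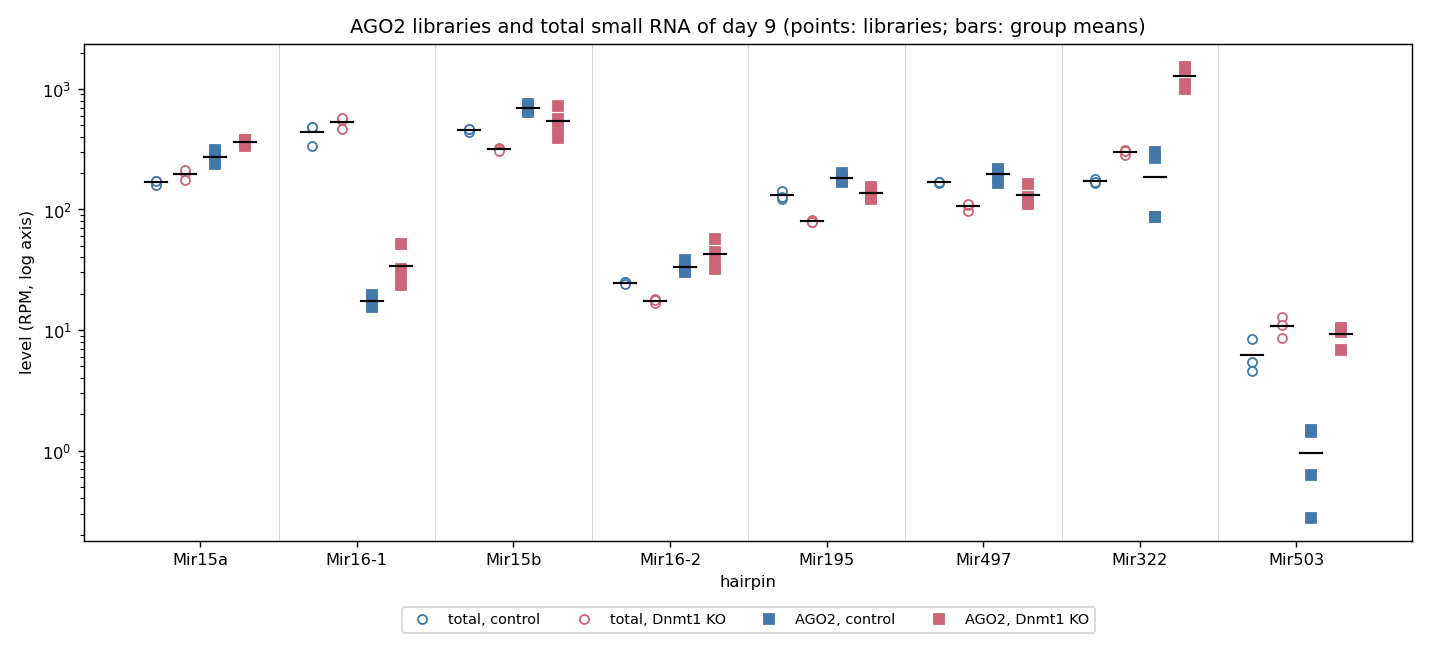
Level of each hairpin (RPM, log axis) in total small RNA of day 9 (open circles, n = 3 libraries per genotype) and in AGO2 libraries (filled squares, n = 4), with group means as bars. Mir16-1 drops from 337 to 571 RPM in total RNA to 15.6 to 52.1 RPM in AGO2, and Mir322 of the Dnmt1 KO rises from 284 to 312 RPM to 998 to 1534 RPM.

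Compared with total small RNA of day 9, AGO2 libraries held far less Mir16-1 in both genotypes. Its mean level was 436 RPM in total RNA and 17.3 RPM in AGO2 libraries of control cells, and 530 and 34.0 RPM in Dnmt1 KO cells, 15.6 times lower, with no overlap in either genotype. The feature of the other copy went the other way by RPM: Mir16-2 had mean levels of 24.6 RPM in total RNA and 33.4 RPM in AGO2 libraries of control cells, and 17.6 and 42.7 RPM in Dnmt1 KO cells. Of all reads of both copies, Mir16-1 took 85.0 to 97.2% in the 36 time course libraries and 29.6 to 58.7% in the 8 AGO2 libraries. The table sums reads over the whole hairpin, and the arm or strand they came from was not analysed here.

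In a fit of the 14 libraries (1564 features), the median of all features was -2.43 in control and -2.40 in Dnmt1 KO cells on the log2 scale (AGO2 minus total), and that of miRNA features 1.65 and 1.79. Against that shift, 8 of 8 members were called in control (95.3% of all features) and 8 of 8 in Dnmt1 KO cells (94.8%), 6 and 7 of them higher, a share near that of the background. Mir503 passed the filter here only through Dnmt1 KO libraries. In AGO2 libraries of control cells its mean was 0.952 RPM, under the pseudocount of 1 RPM. Its calls in this comparison therefore support no difference. The log2 difference of Mir16-1 was -2.84 and -2.80 (SE 0.26, adjusted p = 1.38e-08 and 1.69e-08). It kept its direction under all scalings tried, with the copies summed (-1.39 and -1.65) and in a fit of miRNA features alone (-4.62 and -4.58). In the latter fit Mir15a (0.64), Mir15b (0.55) and Mir195 (0.42) were higher in AGO2 libraries of control cells and Mir503 was lower (-2.01). In Dnmt1 KO cells Mir322 (1.44) and Mir16-2 (0.60) were higher and Mir503 lower (-0.76), and the other members were not called. Mir322 of the Dnmt1 KO was higher in AGO2 under all alternatives (1.34 to 4.45, 3.24 as fitted on all features), whereas in control cells its direction depended on the scaling (-0.88 to 3.02). Feeder markers were lower in AGO2 libraries, with 3 of 5 called in control and 4 of 5 in Dnmt1 KO cells, and 9 and 11 of 12 ESC markers were higher.

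**Figure D4:**
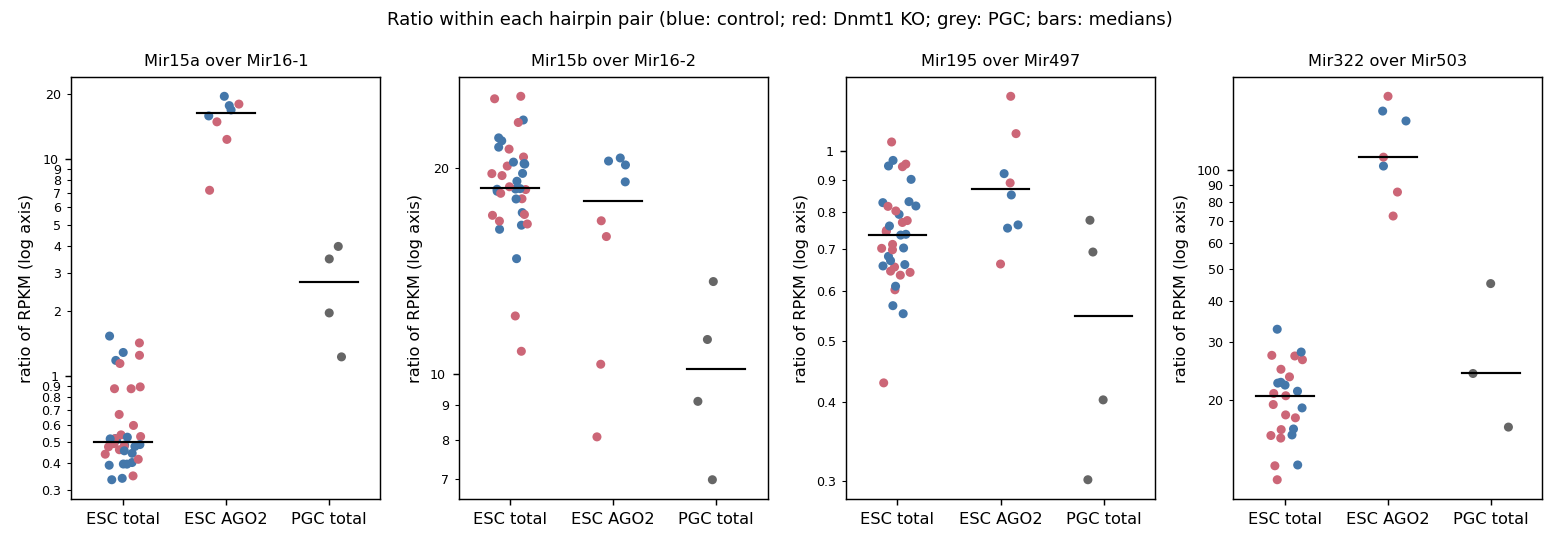
Ratio of RPKM within each pair of neighbouring hairpins (log axis) in total RNA of the ESC time course, AGO2 libraries and PGC libraries with at least 10 reads of each hairpin. Points are libraries and bars medians. Mir15a over Mir16-1 is 0.334 to 1.53 in the time course and 7.19 to 19.5 in AGO2 libraries, with the PGC libraries between 1.23 and 3.97.

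Ratios of RPKM within a pair do not depend on the scaling between libraries. Mir15a over Mir16-1 was 0.334 to 1.53 in the time course and 7.19 to 19.5 in AGO2 libraries, ranges that were apart. Mir322 over Mir503 was 11.5 to 32.8 in the 25 time course libraries and 72.4 to 167 in the 7 AGO2 libraries with at least 10 reads of both. These ranges were apart, but the filter removes libraries where Mir503 was low, and with them high ratios. All day 25 libraries were among those left out, so the upper end of the range in the whole time course is not known. By contrast, Mir15b over Mir16-2 (10.8 to 25.5 and 8.08 to 20.7) and Mir195 over Mir497 (0.429 to 1.03 and 0.662 to 1.22) overlapped between total and AGO2 libraries.

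The family summed to 1035 RPM or more in each ESC library of the time course, and in PGCs to 862 RPM in the E13.5 female, 1062 RPM in the E13.5 male, 602 RPM in the E14.5 female and 643 RPM in the E14.5 male library, so that 3 of 4 PGC libraries were below all ESC libraries by RPM. In the same order, miRNA features held 42.7, 55.7, 36.7 and 40.1% of the total, against 52.9 to 61.5% in ESC libraries. Of the RPM of miRNA features, the family was 0.202, 0.191, 0.164 and 0.161%, against 0.195% or more in ESC libraries. By that share the E13.5 female library was not below all ESC libraries, and the E13.5 male library was. The RPM levels that follow share this limit. Without replicates no test was made, and the intervals that follow (95%, Wilson) cover counting error only. Mir322 was the first of the family by RPKM in both E13.5 libraries, and its level was 458 RPM (434 to 484) in the female and 446 RPM (423 to 471) in the male library, above its highest ESC level of 312 RPM. At E14.5 it was 168 RPM (154 to 182) in the female and 176 RPM (157 to 197) in the male library, within the ESC range. Mir16-1 followed the same order, at 86.7 RPM (76.5 to 98.3) and 86.0 RPM (76.1 to 97.2) at E13.5 and 25.6 RPM (20.8 to 31.6) and 24.8 RPM (18.4 to 33.4) at E14.5, all below the lowest ESC value of 175 RPM.

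Mir195 went the opposite way, from 10.3 RPM (7.18 to 14.8) in the E13.5 female and 32.6 RPM (26.7 to 39.7) in the E13.5 male to 45.7 RPM (39.1 to 53.4) in the E14.5 female and 57.1 RPM (46.9 to 69.5) in the E14.5 male library, all under the ESC minimum of 58.7 RPM, although the last interval reached above it. Mir15b ranged from 146 RPM (133 to 161) in the E13.5 female to 240 RPM (223 to 258) in the E13.5 male library, Mir15a from 80.3 to 152 RPM and Mir497 from 30.6 to 72.2 RPM, each below its ESC range, with the intervals of Mir15a in the E13.5 male (139 to 167 RPM) and of Mir497 in both male libraries reaching into it. Mir16-2 (14.99 to 25.5 RPM) and Mir503 (5.19 to 14.2 RPM) had intervals that reached into the ESC range. The sex and stage cannot be told apart from the single libraries they rest on. Mir202, a miRNA of the gonadal soma, reached 154 RPM in these libraries and at most 1.79 RPM in the time course, and feeder or mesenchyme markers summed to 15280 RPM in the E13.5 female against 4001 to 6239 RPM in the other 3 libraries. Their part in these levels was not tested.

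**Figure D5:**
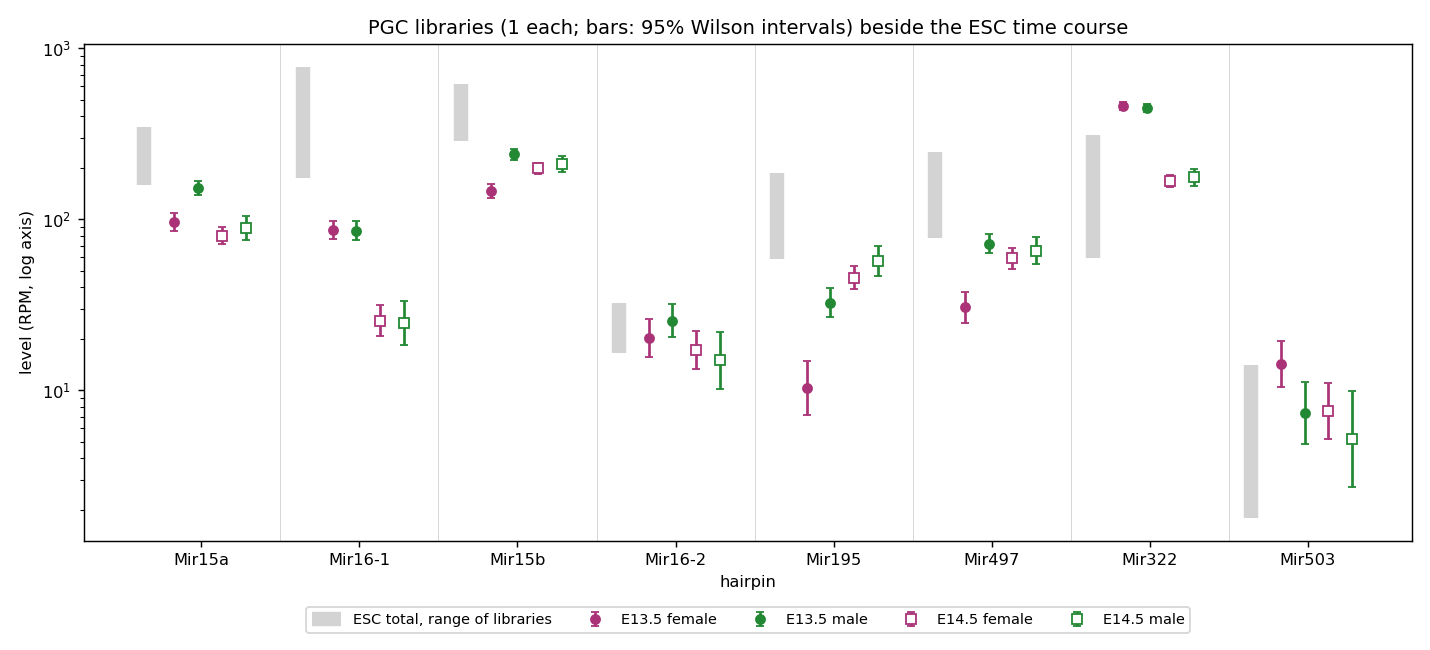
Level of each hairpin (RPM, log axis) in the 4 PGC libraries, 1 per sex and stage, with 95% Wilson intervals for counting error, beside the range of the 36 ESC time course libraries in grey (for Mir503, 1 ESC library at 0 cannot be drawn). Mir322 at E13.5, 446 and 458 RPM, lies above the ESC range, and Mir15a, Mir16-1, Mir15b, Mir195 and Mir497 lie below it.

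The R1 libraries of PGCs added little. The E13.5 female R1 library held 12 reads of the family. The E13.5 male R1 library held 0 in 60317 reads, which allows up to 49.7 RPM for each hairpin if each read was counted once. Of nonzero read values, 94.0, 89.7 and 96.4% were even in the E13.5 female, E13.5 male and E14.5 male R1 libraries. If reads were counted more than once, these read numbers are too high. The limit of 49.7 RPM is then too low and the intervals below are too narrow. The E14.5 male R1 library, with 1316 reads of the family, differed from the other library of that sex and stage. Over 258 miRNA features its log2 levels were closer to the E13.5 male library (Pearson r = 0.992) than to the E14.5 male library (r = 0.974). Its Mir322 (426 RPM, 392 to 463) and Mir16-1 (100.1 RPM, 84.5 to 119) were near the E13.5 values. Which library is mistitled, if any, cannot be told from these values. The R1 library was left out of the values above, so the E14.5 male values there come from the other library alone. The libraries titled none held 67 reads of 7 members in control and 11 reads of 5 members in Dnmt1 KO cells, in totals of 57155 and 9830 reads, too few for any comparison.

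Across the 12 group means of the time course, the miRNA features most like each member were found by Spearman's rho among 283 candidates, a description without a test, since all points share libraries, depth and the same 2 genotypes. For Mir322 these were Mir34c (0.972), Mir21 (0.972) and Mir98 (0.937), and for Mir503 they were Mir34c (0.937), Mir21 (0.909) and Mir467d (0.902). Both hairpins of chromosome 11 shared their nearest features, Mir20b (0.951 for Mir195 and 0.937 for Mir497) and Mir363 (0.916 and 0.909), followed by Mir106a (0.881) and Mir670 (0.895). Mir15b was most like Mir17 (0.832), Mir874 (0.804) and Mir92-1 (0.769), and Mir16-2 most like Mir339 (0.944), Mir18 (0.888) and Mir361 (0.881). The nearest features of Mir15a were Mir27a (0.853), Mir29c (0.839) and Mir293 (0.797), and those of Mir16-1 were Mir542 (0.811), Mir152 (0.769) and Mir362 (0.769). Within the family, neighbours followed each other to unequal degrees, with rho of 0.993 for Mir195 and Mir497, 0.916 for Mir322 and Mir503, 0.699 for Mir15b and Mir16-2, and 0.02 for Mir15a and Mir16-1.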

How the data were processed

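Small RNA libraries (83, single-end or paired-end reads) were analysed from a deposited table of 32101 features, whose values are RPKM made by the authors: reads were trimmed with Trim Galore 0.3.5, aligned with Bowtie2 2.2.9 to NCBIM37, restricted to 20 to 24 bases and quantified in SeqMonk, per the labels and the study's methods. Strand use and the placing of reads with several matches are not given in the sources used here. RPM was computed as RPKM times feature length, and whole reads were read back from the step of each library (all low values whole within 5% of a step), which gave depths. Values of log2(RPM + 1) after TMM scaling (trims of 30% and 5%) were tested with limma 3.58.1 in R 4.3.3 (other steps in Python 3.11.15), for features with at least 10 RPM in at least 3 libraries and with Benjamini-Hochberg adjustment over all of them. The 36 time course libraries shared 1 fit, the AGO2 libraries had their own, and AGO2 with day 9 a joint fit. Folds are on the log2(RPM + 1) scale, which understates changes of low hairpins.

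The scripts were tested on simulated data. Named features were the 8 members, features overlapping them, list counts with examples, and the 3 miRNA features most like each member. Members and lists were chosen with earlier results of these data known. The series' design text calls replicates biological, but no sample label names a culture, so p-values measure the spread between these libraries, which may be technical. Replicate numbers of AGO2 libraries paired the genotypes (correlation of same-numbered deviations 0.194 to 0.386 in 4 of 4 pairs), those of the time course did not (-0.066 to 0.047). Alternatives covered scaling, filters, pseudocounts (0.1 and 5 RPM), voom weights, separate fits, a replicate block, R1 libraries, summed miR-16 copies and leaving out each library.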

Additional observations from a re-analysis of the deposited data

Results flagged for a closer look

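The genotype difference of Mir322 changed between days: from day 1 to day 11 the log2 difference between Dnmt1 KO and control cells grew by 0.96 ± 0.17 (SE, adjusted p = 3.36e-05, limma, tested as the difference of both differences), with all 3 Dnmt1 KO libraries above all 3 control libraries on day 11 and overlapping ranges on day 1. In the AGO2 groups of 4, none of 16 sets of values (8 members in 2 groups) held a library beyond Dixon's limit.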

How the results depend on the processing

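Of 49 member values called or belonging to Mir322, 989 of 1093 alternative values kept direction and call, 85 lost the call and 19 changed direction; causes were not tested. Mir322 was called under all alternatives on day 3 (0.43 to 0.86), day 6 (0.74 to 1.28), day 9 (0.70 to 0.99) and day 11 (0.53 to 0.94) and for the change from day 1 to day 11 (0.59 to 1.26). In AGO2 it ranged from 1.84 to 3.00. Of 46 values not called, 16 were called under some alternative in the same direction.

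Directions changed mainly for AGO2 against total RNA. In control cells, Mir322 was -0.12 with library totals, -0.88 by the miRNA total, -0.35 with at least 10 reads in every library and -0.17 among miRNA features; by the miRNA total Mir15a was -0.080, Mir15b -0.17, Mir16-2 -0.32, Mir195 -0.29 and Mir497 -0.53; Mir503 was 0.072 with median-ratio factors and 0.22 with at least 1 read. In Dnmt1 KO cells, Mir503 was -0.21 with library totals, -0.86 by the miRNA total and -0.76 among miRNA features, and Mir497 was -0.42, -0.12 with at least 10 reads and -0.32 among miRNA features. Mir322 on day 1 was 0.035 by the miRNA total, and Mir15a over the mean was -0.0068 among miRNA features.

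Counts of members called in AGO2 against total control were 5 with library totals, 4 by the miRNA total, 2 with at least 10 reads and 5 among miRNA features; in Dnmt1 KO they were 5 by the miRNA total, 4 with at least 10 reads and 4 among miRNA features. With at least 1 read they were 3 on day 9, 2 on day 25 and 2 between AGO2 genotypes; with voom weights 8, 2 and 2 on days 9, 11 and 25; among miRNA features 3 on day 3 and 4 on day 11. Day 25 alone gave 2, R1 libraries 2 on day 9 and averaged AGO2 pairs 0. Leaving out 1 library gave 2 to 4 on day 25, 2 to 5 on day 9, 4 to 6 on day 6, 2 to 4 in AGO2, 6 to 7 for the mean, and 7 to 8 for AGO2 against total in either genotype. The lowest value, 2, came without control replicate 1 or 2 for day 25, without control replicate 2 for day 9 and without control replicate 3 for AGO2.

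With a replicate block, AGO2 kept its 4 calls (Mir322 2.73, adjusted p = 0.00301). In the time course, where the numbers did not pair the libraries, the block gave 6 members on day 6 and changed no other count. Chosen after seeing the data, the mean of days 1 to 11 gave 7 members and control day 25 against day 1 fitted alone gave 4. Depth limits Mir503 (0 to 80 reads) and day 25.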
